A study of Homo sapiens with 6 samples.

Results

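The UGT2A and UGT2B genes of 4q13 encode UDP-glucuronosyltransferases, enzymes of the endoplasmic reticulum. The 9 members described here are UGT2A1, UGT2A3, UGT2B4, UGT2B7, UGT2B10, UGT2B11, UGT2B15, UGT2B17 and UGT2B28. They were chosen by name and position, with earlier results of these data known. They are 9 of the 19974 protein-coding genes of the RefSeq table on chromosomes 1 to 22 and X. From the start of UGT2B17 to the end of UGT2A1 they span 1116 kb of chromosome 4 (hg38, 68537173 to 69653247).

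LaminB1, a lamin of the inner face of the nuclear envelope, was mapped by CUT&RUN, in which a nuclease tethered to an antibody releases the chromatin it binds. The cells were HCT116, a human colorectal carcinoma line, with both TOP2A alleles fused to an auxin-inducible degron (mAID). The control group was this degron line, labelled wildtype, with wild-type TOP2B. No auxin is given for it in the labelled treatment. The double loss group, labelled a TOP2A and TOP2B double knockout, was the degron line with TOP2B knocked out (TOP2B -/-) and TOP2A degraded by 500 uM auxin for 8 h. Cells of both groups were arrested in G1 by 28 h in 2 uM palbociclib. There were 2 LaminB1 libraries and 1 IgG library per group, and the data were 4 lists of called LaminB1 regions, 1 per LaminB1 library. The labels do not say how many clones the TOP2B knockout stands for, or whether the replicates came from separate cultures, so p-values may measure technical spread alone. Lists of regions carry no level of TOP2A, TOP2B or any cell marker, so the losses and the cell type were not checked here. TOP2A and TOP2B are the type II topoisomerases of human cells, which pass one DNA duplex through another. The comparison asks where chromatin meets the lamina when both are missing.

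UGT2 enzymes join glucuronic acid, taken from UDP-glucuronic acid, to steroids, bile acids and drugs, which makes them more soluble and readies them for excretion. The genes arose by repeated duplication and remain close in sequence, and they are best known from liver, gut, kidney and steroid-target tissues. Chromatin at the lamina is mostly gene-poor, rich in A and T and little transcribed. Expression was not measured in these libraries.

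The 4 members whose covered share is described first are UGT2B15, UGT2B10, UGT2B7 and UGT2B11, and the 250 bases before the start site of each are shown so that the sequences at their starts can be set beside their covered shares. They come from the RefSeq promoter table (GRCh38.p14), which holds 6 of the 9 members. UGT2B15 and UGT2B10 are the adjacent members with the most opposed differences, UGT2B7 is the member with the largest positive difference, and UGT2B11 was added after its values were seen. The windows are chr4:68670653-68670902 (minus strand) for UGT2B15, chr4:68815744-68815993 (plus strand) for UGT2B10, chr4:69096224-69096473 (plus strand) for UGT2B7 and chr4:69214749-69214998 (minus strand) for UGT2B11. Each is written 5′ to 3′ on the gene's strand, and capitals mark matches to the motifs searched.
UGT2B15: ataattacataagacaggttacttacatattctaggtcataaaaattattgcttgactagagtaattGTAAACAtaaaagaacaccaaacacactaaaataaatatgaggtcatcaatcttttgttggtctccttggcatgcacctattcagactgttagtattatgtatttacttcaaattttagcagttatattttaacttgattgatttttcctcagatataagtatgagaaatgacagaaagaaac
UGT2B10: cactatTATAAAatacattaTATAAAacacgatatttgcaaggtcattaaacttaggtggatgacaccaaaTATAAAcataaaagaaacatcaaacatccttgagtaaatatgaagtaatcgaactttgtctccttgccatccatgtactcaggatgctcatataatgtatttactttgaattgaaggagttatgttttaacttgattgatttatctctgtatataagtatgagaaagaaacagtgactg
UGT2B7: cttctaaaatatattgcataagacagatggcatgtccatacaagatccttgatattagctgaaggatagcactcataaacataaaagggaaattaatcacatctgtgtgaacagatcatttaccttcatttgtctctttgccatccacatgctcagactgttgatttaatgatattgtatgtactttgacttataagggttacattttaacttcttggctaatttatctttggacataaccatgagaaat
UGT2B11: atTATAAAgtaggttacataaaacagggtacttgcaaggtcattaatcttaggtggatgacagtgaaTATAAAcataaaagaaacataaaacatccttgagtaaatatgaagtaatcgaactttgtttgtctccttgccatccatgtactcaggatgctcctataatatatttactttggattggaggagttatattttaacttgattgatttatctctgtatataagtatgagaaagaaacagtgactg

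Motifs were searched on both strands, and positions are those of a match's first base counted back from the start site. The first motif was the HNF1 site GTTAAT, which 6.22% of the 27305 windows of this length in the table held and none of the 4 windows shown did. The second was the forkhead core TGTTTAC, which 2.98% of all windows held. UGT2B15 had 1 such match, on the other strand as GTAAACA, at -183. The third was the TATA box TATAAA, which 11.1% of all windows held. UGT2B10 had it at -244, -230 and -179, and UGT2B11 at -248 and -183. The UGT2B7 window had no match to any of the motifs, and no matches overlapped. The UGT2B10 and UGT2B11 windows were identical in 90.2% of aligned columns, with a longest identical run of 55 bases. The reads had 75 bases, but only promoter windows were aligned, so whether reads of gene bodies can be told apart was not tested. The UGT2B15 window was identical to that of UGT2B11 in 71.4% and to that of UGT2B10 in 70.6%. UGT2B7 stood further off, at 61.3% against UGT2B15, 64.6% against UGT2B10 and 65.1% against UGT2B11. A and T made up 71.6% of the UGT2B15 window, 70.4% of UGT2B10, 67.2% of UGT2B7 and 68.8% of UGT2B11, against a median of 42.0% over all windows. The windows of 2 members covered in no list, UGT2A3 and UGT2A1, had 72.0% and 66.0%. UGT2A1 held GTTAAT at -121 and TATAAA at -81. A link of motifs or A and T content with covered share was not tested.

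The measure used for each gene is the covered share, the percent of its gene body inside called regions. It says where a list has a region and not how much LaminB1 is bound, and a gene at 0% lies in no called region. UGT2B15, which glucuronidates androgens and oxazepam, was the member with the largest difference between groups. Its gene body (24.1 kb, 68646597 to 68670652, minus strand) was covered by 69.2% in control 1 and 74.8% in control 2, by 5.84% in double loss 1 and by 0% in double loss 2. Both double loss lists lay far below both controls. The group means were 72.0% ± 3.96 and 2.92% ± 4.13 (SD, n = 2 libraries each), a difference of -69.1 percentage points. In the limma fit over the 3058 genes with covered sequence, its unadjusted p was 0.00644 and its Benjamini-Hochberg adjusted p was 0.111, which misses the threshold of 0.05. Among all genes tested, 13.9% had both double loss lists below both controls, and 0.981% were called lower by limma at an adjusted p under 0.05.

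Both control lists placed a region over the inner part of UGT2B15, beginning at the same step of the 1 kb grid. All region edges lie on this grid, so they can be compared only to 1 kb. In control 1 it ran from 68648001 to 68663000 (15 kb, 171 LaminB1 reads against 66 control library reads), and in control 2 from 68648001 to 68666000 (18 kb, 187 against 82). The authors' deposited log2 fold was 1.10 in control 1, at percentile 99.7 of that list, and 0.87 in control 2, at percentile 91.4. The shared 15 kb is the longest stretch of the span found in each control list and in no double loss list. In double loss 1 a region from 68621001 to 68648000 ended where the control regions began, and in double loss 2 no region touched the gene. The 250 bases before the UGT2B15 start site were covered in control 1 only, by a further region that began at 68669001, so the stretch shared by the controls lay inside the gene.

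The control library was sparse over this stretch in the control lists, and its density there in the double loss lists is not known, since neither had a region over it. The library had 4.4 reads per kb in the control 1 region, the lowest of the 810 control 1 regions on chromosome 4, whose median was 6.28. In the control 2 region it had 4.56 reads per kb, at percentile 0.471 of chromosome 4. LaminB1 reads stood at 11.4 per kb in control 1, at percentile 52.6, and at 10.4 per kb in control 2, at percentile 3.01. Where 2 lists of 1 group shared a region's edges, the control library counts were equal in 105 of 105 regions, against 3 of 154 between groups. Both control lists were thus scored against 1 control library, and both double loss lists against another. The high fold over UGT2B15 in both control lists therefore shares its denominator, and the part of this library in the result was not tested. How reads that match several UGT2 copies were placed is not given in the sources used here.

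**Figure D1:**
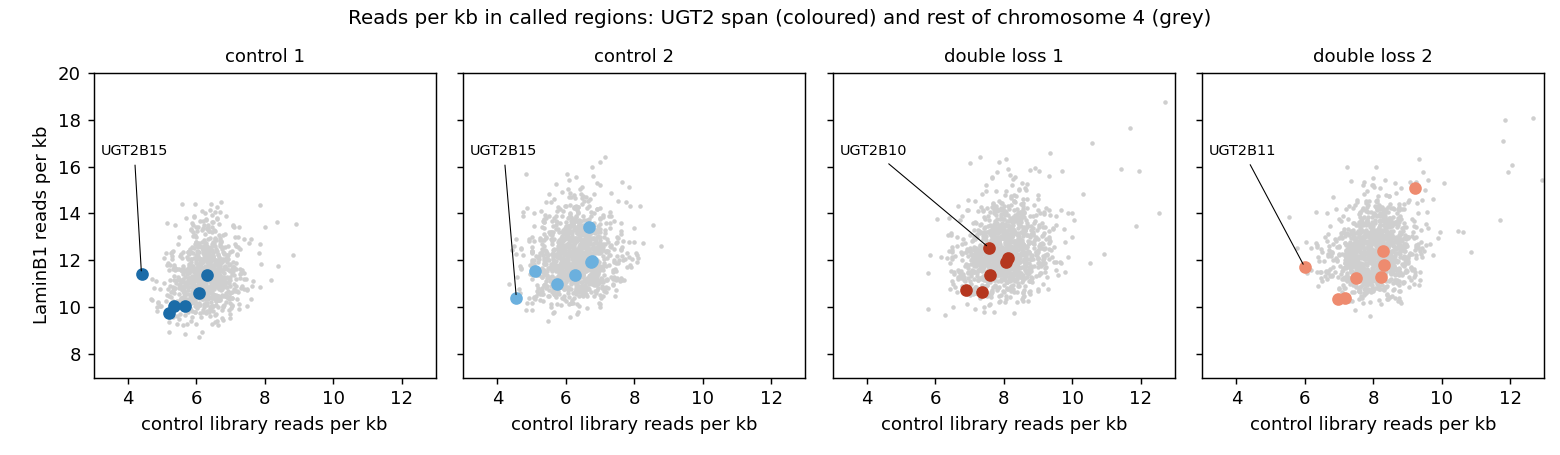
Reads per kb in each called region, control library on the x axis and LaminB1 on the y axis, 1 panel per list, with regions of the UGT2 span in colour and other regions of chromosome 4 in grey. The UGT2B15 regions lie at the left edge in control 1 (4.4 control reads per kb) and control 2 (4.56), as the UGT2B11 region does in double loss 2 (6), and 3 to 6 grey regions per list lie outside the axes.

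UGT2B7, which glucuronidates morphine and many other drugs, had the opposite pattern. Its gene body in the RefSeq table (61.6 kb, 69051375 to 69112987, plus strand) was covered by 0% in both controls, by 30.8% in double loss 1 and by 44.8% in double loss 2. Both double loss lists lay above both controls, with a mean of 37.8% ± 9.90 (SD, n = 2) against 0%. The limma unadjusted p was 0.00409 and the adjusted p was 0.0875, so this difference also missed the threshold. Among all genes tested, 21.5% had both double loss lists above both controls and 1.67% were called higher.

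The covered sequence of UGT2B7 lay in the upstream part of the annotated body. The start site in the promoter table is at 69096474, so 45.1 kb of the body lies before it, and from that start to the gene's end the covered share was 0% in all 4 lists. The double loss 1 region ran from 69073001 to 69092000 (19 kb, 204 LaminB1 against 131 control library reads, log2 fold 0.57). The double loss 2 region ran from 69050001 to 69079000 (29 kb, 301 against 208 reads, log2 fold 0.46). They overlapped in 6 kb, from 69073001 to 69079000, and the deposited fold was within the middle part of each list (percentiles 64.3 and 39.5). LaminB1 reads per kb were low for chromosome 4 in both, at percentiles 5.13 and 1.53. The promoter-table window of UGT2B7 shown above was not covered in any list. With only the upper 50% of regions by deposited fold in each list, double loss 1 kept 30.8% and double loss 2 was at 0%, so the groups overlapped (limma adjusted p = 0.547).

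UGT2B10, which adds glucuronic acid to nicotine, cotinine and other tertiary amines, is the next member after UGT2B15 and lies 145 kb further on. Its body (16.03 kb, 68815994 to 68832023, plus strand) was at 0% in both controls, 25.0% in double loss 1 and 0% in double loss 2. The groups overlapped, and limma's adjusted p was 0.589. The covered part came from a region from 68801001 to 68820000 (238 LaminB1 against 144 control library reads), which also took in the whole 250-base window before its start site. UGT2B15 minus UGT2B10 was 69.2 and 74.8 points in the controls, and -19.2 and 0 points in the double loss lists. This is a change of -81.6 points in the mean, the most opposed of the adjacent pairs. The pair was chosen for this value, so it stands as a description, and the UGT2B10 value rests on double loss 1. The opposed pair with values in both double loss lists is UGT2B15 and UGT2B7, which are 381 kb apart and not adjacent, and was added after seeing the data. There the within-list difference went from 69.2 and 74.8 points to -25.0 and -44.8 points.

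**Figure D2:**
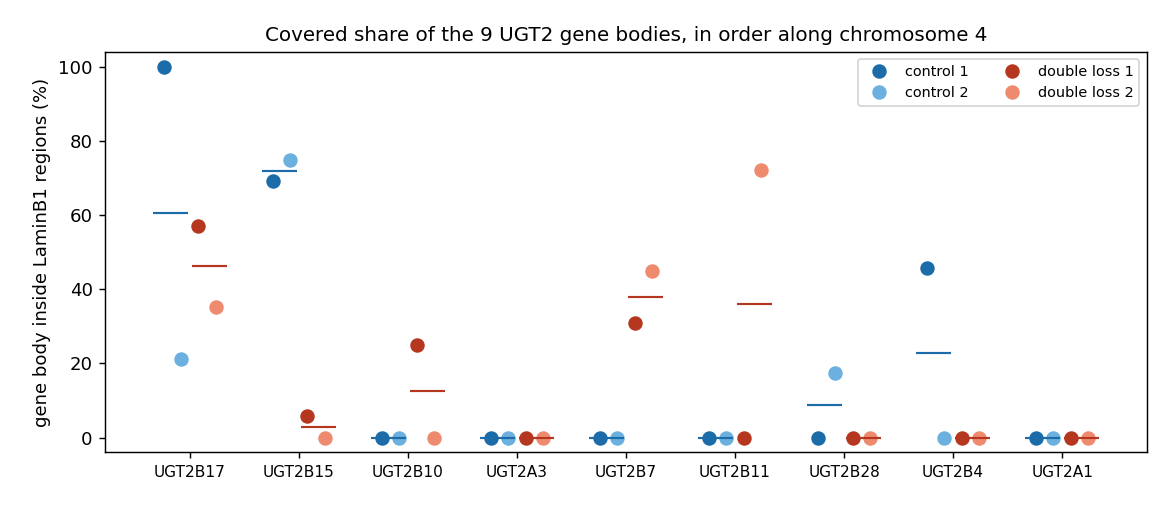
Covered share of each UGT2 gene body (y axis, percent) in the 4 lists, genes in order along chromosome 4, points for lists and short lines for group means. UGT2B15 has both controls near 72% and both double loss lists under 6%, UGT2B7 has both controls at 0% and double loss at 30.8% and 44.8%, and the other members have overlapping groups.

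UGT2B11, a close relative of UGT2B10 with few known substrates, was covered in a single list. Its body (25.0 kb, 69199951 to 69224984, minus strand) was at 0% in both controls and double loss 1 and at 72.1% in double loss 2. The groups overlapped, and limma's adjusted p was 0.589. The region ran from 69198001 to 69218000 (20 kb, 234 LaminB1 against 120 control library reads) and covered 100% of the gene from its promoter-table start site at 69214748, with the 250 bases before it. Its log2 fold of 0.89 was at percentile 98.5 of that list. The control library had 6 reads per kb there, at percentile 0.270 of chromosome 4, and its part in this region was not tested.

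UGT2B17 and UGT2B28 also conjugate androgens. UGT2B17 (39.15 kb, 68537173 to 68576322) inactivates testosterone and dihydrotestosterone, and a deletion of the gene is common in people. Its copy number in these cells is not given in the labels. UGT2B17 was the single member covered in all 4 lists, by 100% in control 1, 21.3% in control 2, 57.0% in double loss 1 and 35.3% in double loss 2. The 2 controls bracketed both double loss lists. The means were 60.6% ± 55.7 and 46.2% ± 15.3 (SD, n = 2), with limma's adjusted p at 0.798. Without control 1 the difference was 24.9 points in the opposite direction, against -14.5 with all lists. UGT2B28 (14.6 kb, 69280475 to 69295050) was at 0% in control 1, 17.3% in control 2 and 0% in both double loss lists, from 1 region that reached its edge.

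UGT2B4 (45.85 kb, 69480165 to 69526014), which conjugates bile acids, was at 45.8% in control 1 and 0% in the other 3 lists, with limma's adjusted p at 0.589. The control 1 region over it ran from 69505001 to 69552000 (47 kb, 459 LaminB1 against 245 control library reads). UGT2A3, expressed in intestine and liver, and UGT2A1, known from the olfactory epithelium, were at 0% in all 4 lists. UGT2A2 lies within the UGT2A1 gene, shares exons with it, and was also at 0% in all lists.

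In all, 7 of the 9 members had covered sequence in at least 1 list and entered the fit, and 2 were never covered. Of the 7, 4 were covered in 1 list only, against 19.98% of all genes tested. Limma called 0 of 7 at an adjusted p under 0.05 and 2 of 7 had an unadjusted p under 0.05. The share of all genes tested with such an unadjusted p is not given here, so 2 of 7 is not read as an excess. In 1 member both double loss lists lay above both controls and in 1 below. The median difference of the 7 was -8.66 points, beside 0.77 over all genes tested. The list of members thus held a difference in each direction and no call, and 21.5% and 13.9% of all genes had groups parted upward or downward in the same way.

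**Figure D3:**
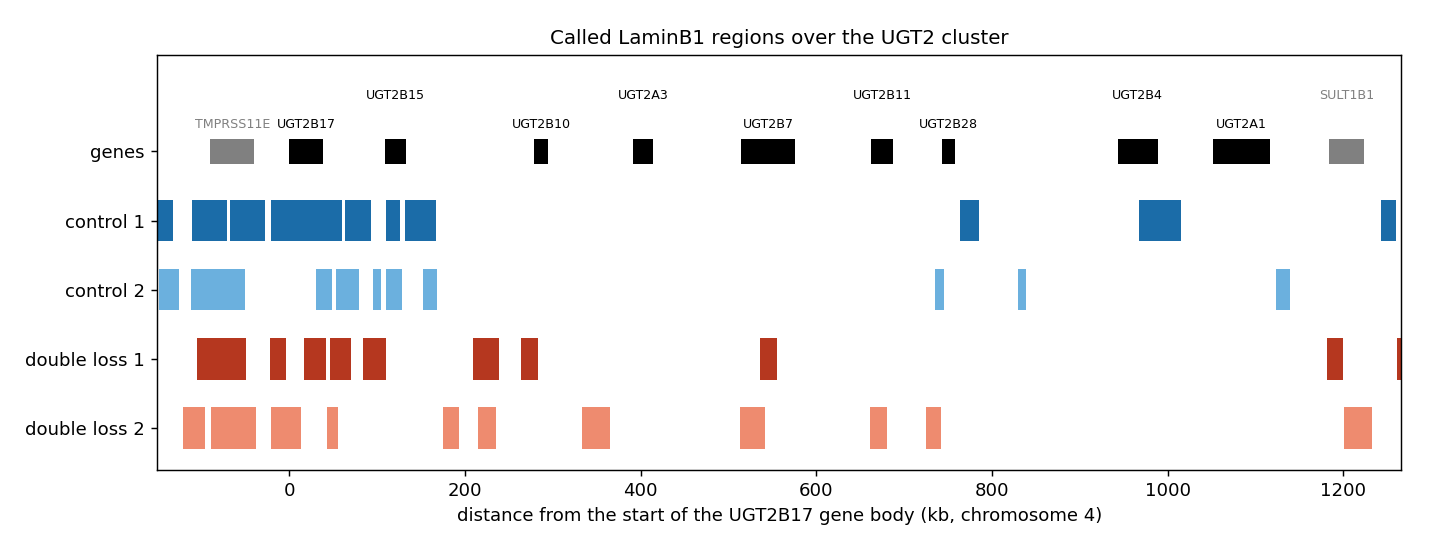
Called LaminB1 regions of the 4 lists (rows) over the UGT2 span and its flanks, with gene bodies on the top row and distance from the start of UGT2B17 on the x axis in kb. Regions over the inner part of UGT2B15 are in the control rows, with a double loss 1 region reaching the gene's edge (5.84%), those over UGT2B7 and UGT2B11 in the double loss rows, and the region over UGT2B4 is in control 1 alone.

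Over the whole span the 2 groups did not part. The covered share was 18.6% in control 1, 9.50% in control 2, 12.8% in double loss 1 and 14.8% in double loss 2. The double loss values lay between the controls, and the means were 14.1% ± 6.45 and 13.8% ± 1.38 (SD, n = 2). The exact permutation p, two-sided, was 1.00, where the smallest that 2 against 2 libraries can give is 0.333. Chromosome 4 as a whole had 21.3% and 19.1% in the controls and 25.4% and 26.2% in double loss, so its double loss lists lay above both controls (exact permutation p = 0.333). The 1 Mb before the span was covered by 44.1% to 51.3% in the 4 lists. The 1 Mb after it went from 35.6% and 23.3% in the controls to 45.7% and 39.1% in double loss, a difference of 12.95 points in the mean (exact permutation p = 0.333).

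The lists overlapped little inside the cluster. Of 425 kb covered in any list, 4 kb (0.941%) was in all 4 lists, against 33.7% of such sequence on chromosome 4 and 37.6% in the genome. A single list held 267 kb (62.8%), against 25.4% on chromosome 4. The 1 Mb before the span had 37.1% in all 4 lists and 12.4% in 1 list only, and the 1 Mb after it had 14.1% and 49.0%. Sequence in the 2 control lists alone made up 39 kb (9.18%, against 2.39% on chromosome 4 and 4.43% in the genome). The 1 Mb before the span had 5.43% and the 1 Mb after it 2.51%. Sequence in the 2 double loss lists alone made up 27 kb (6.35%, against 10.4% on chromosome 4 and 6.41% in the genome). For this class the 1 Mb before had 1.24% and the 1 Mb after 6.83%. These shares are descriptions of 1 locus and were not tested.

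The sequence between the genes also held regions. The 70.3 kb between UGT2B17 and UGT2B15 was covered by 70.7% and 63.6% in the controls, 74.4% in double loss 1 and 18.5% in double loss 2. The 145 kb between UGT2B15 and UGT2B10 went from 22.9% and 10.3% to 30.3% and 27.5%, above both controls. Within it a stretch of 14 kb near UGT2B15 (68690001 to 68704000) was covered in the 2 controls alone, and a stretch of 21 kb further on (68752001 to 68773000) in the 2 double loss lists alone. The 185 kb between UGT2B28 and UGT2B4 went from 11.9% and 4.86% to 0% in both double loss lists, with the control regions at different places in the 2 lists. The 96.4 kb between UGT2B10 and UGT2A3 was covered in double loss 2 alone, by 33.2%.

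In steps of 10 kb the span has 113 steps, of which 53 had covered sequence in any list and 60 had none. Both double loss lists lay above both controls in 4 of the 53 (7.55% of covered steps), where 10.8% of all 10 kb bins tested did. They lay below both in 7 (13.2%), where 7.55% of all bins did. The other 42 overlapped, and 32 steps were covered in 1 list only. The 7 lower steps all lay before 68710000, in and beside UGT2B17 and UGT2B15, and the 4 higher steps lay further along. Of those, 3 adjoin one another between UGT2B15 and UGT2B10 (68750001 to 68780000) and 1 lies in UGT2B7 (69070001 to 69080000). The lower step that ends at 68710000 and the higher one that begins at 68750001 are the nearest of opposite direction.

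Limma called 1 step higher, from 68760001, and 2 lower, from 68650001 inside UGT2B15 and from 68690001 beyond its start site, each at an adjusted p of 0.00871. Over all bins tested, 2.77% were called higher and 1.84% lower. Each of the 3 steps was at 0% in both lists of one group and 100% in both of the other. Of 4378 bins called in the genome, 4097 had no spread in either group, so these calls rest on steps with no spread between replicates. With the replicate number as a block, limma called 0 of all 95092 bins, so the loss of these calls was not particular to the span.

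**Figure D4:**
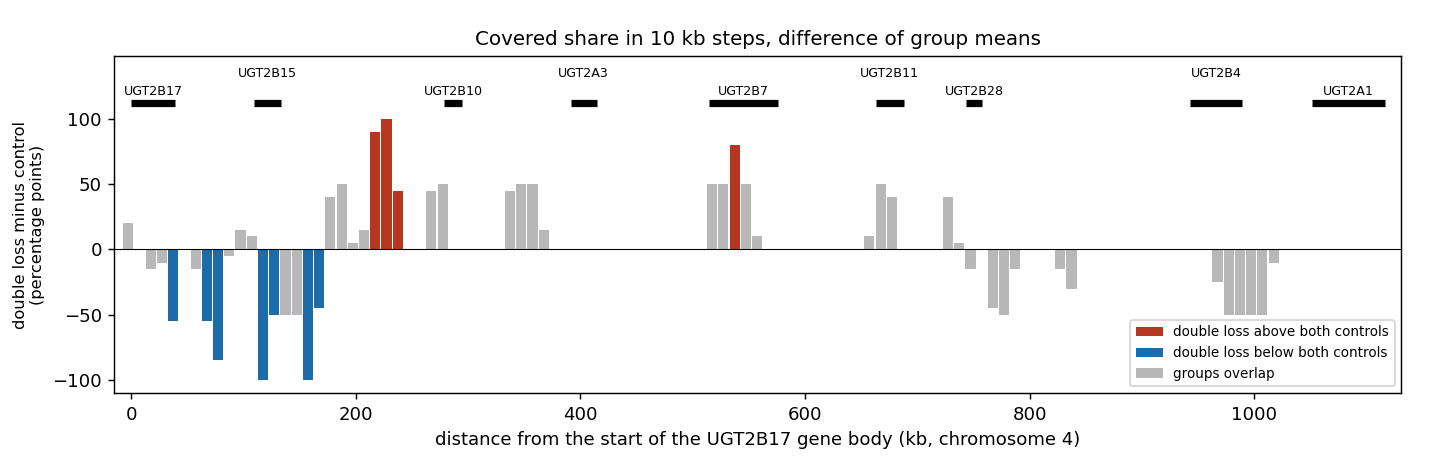
Difference in mean covered share, double loss minus control (y axis, percentage points), in 10 kb steps along the UGT2 span (x axis, kb from the start of UGT2B17), with gene bodies as black bars. The 7 steps below both controls lie around UGT2B17 and UGT2B15, the 4 steps above both controls lie before UGT2B10 and in UGT2B7, and grey steps have overlapping groups.

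The lists held 6 and 7 regions there in controls 1 and 2, and 6 and 8 in double loss 1 and 2. Their median width was 32 kb in control 1, 15 kb in control 2, 24.5 kb in double loss 1 and 20.5 kb in double loss 2, beside 30, 21, 29 and 29 kb on chromosome 4. The lists held 10771 to 13599 regions in the genome, with 7263458 to 8351031 LaminB1 reads in them. A library's depth outside its regions is not known from the lists.

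Among the other genes inside the span, 27 were pseudogenes and 3 long noncoding RNAs. Of the pseudogenes 10 were covered in some list and 0 were above both controls. The 2 below both, LOC100422402 and LOC100132651, lie in 1 stretch of 9 kb (68608001 to 68617000) covered in the 2 control lists alone. They are thus 1 difference, and the share over all pseudogenes is not given here. The 5 pseudogenes with UGT2 names included 1 that was ever covered, UGT2A3P7, at 100% in control 1 alone. It lies within the UGT2B4 body.

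The genes that flank the cluster differ on its sides. Before it lie serine proteases of epithelia, and TMPRSS11E, 39.6 kb from UGT2B17, was at 92.0% and 78.9% in the controls and 80.8% and 98.9% in double loss. TMPRSS11A, TMPRSS11F and TMPRSS11B had 49.3% or more in every list with overlapping groups. YTHDC1, a reader of methylated RNA, was at 0% in all lists. After the cluster lies SULT1B1, a sulfotransferase of phenols and thyroid hormones, 67.9 kb from UGT2A1. It was at 0% in both controls and at 40.1% and 57.3% in double loss, with a limma adjusted p of 0.0857. UGT2B7 likewise had both controls at 0% and both double loss lists above them. SULT1E1, which sulfates estrogens, was at 49.1% and 46.5% in the controls and at 35.6% and 46.1% in double loss, a difference of -6.93 points with limma's adjusted p at 0.632. The casein genes CSN1S1 and CSN2 were at 0% in all lists, and STATH, a saliva protein, was covered in 1 control and 1 double loss list.

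A further 72 genes, in 5 lists related to glucuronidation, were looked up for the same measure, and 21 had covered sequence. Limma called 0 of the 21 higher and 1 lower, and 51 lay in no called region. An unadjusted p under 0.05 was found in 2, and the share of all genes with such a p is not given here. Over all genes tested 1.67% were called higher and 0.981% lower. Of the other UDP-glycosyltransferases 2 of 12 were covered. The UGT1A genes of chromosome 2, the other main family of drug glucuronidation, were at 0% in all lists. UGT3A1 was at 100%, 34.0%, 54.0% and 68.0% in controls 1 and 2 and double loss 1 and 2, and UGT3A2 was at 87.4%, 100%, 0% and 81.5%. None of the 5 genes for the supply and reversal of glucuronidation was covered.

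Of the sulfotransferases 4 of 12 were covered and 0 called, with SULT1C3 at 100% and 68.4% in the controls and 99.9% and 51.2% in double loss. Of the other phase I and II enzymes 12 of 28 were covered and 0 called. In 3 of the 12 both double loss lists lay above both controls, as in 21.5% of all genes tested. AKR1C1, an aldo-keto reductase of progesterone, was at 0% and 46.7% in the controls and 68.4% and 58.3% in double loss. AKR1C4 was at 85.7% and 0%, then 100% and 77.4%. HSD3B1, a steroid dehydrogenase, was at 100% in both controls, 0% in double loss 1 and 100% in double loss 2.

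Of the transcription factors known to act on UGT2 genes 3 of 15 were covered, and FOXA2, a forkhead factor of liver and gut, was called lower. Its gene (chromosome 20, 22580998 to 22585490) was at 99.9% and 100% in the controls and at 0% and 0.0668% in double loss, with a limma adjusted p of 0.0156. The limma call was lost with the replicate block (adjusted p = 0.273), with an equal number of regions per list (0.60) and with 10 kb added on each side (0.337). The replicate block called 0 of 3058 genes and 10 kb added on each side called 0 of 3382. The loss in those settings was thus not particular to FOXA2. With the upper 50% of regions FOXA2 was covered in no list. Chromosome 20 as a whole went from 35.6% and 33.5% to 12.6% and 12.9%, and its part in the FOXA2 value was not tested. NR1H4, the bile acid receptor, was at 66.4% and 71.9% in the controls and 67.5% and 59.8% in double loss. ESR1, the estrogen receptor, was at 20.3% or less in every list.

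The 3 genes of at least 20 kb whose 4 values were closest to those of UGT2B15, by the sum of absolute differences over the 4 lists, lay on other chromosomes. They were LRRC38 on chromosome 1 (61.6% and 74.4% in the controls, 0% in both double loss lists), VSNL1 on chromosome 2 (78.6% and 74.3%, then 0% in both) and RASEF on chromosome 9 (67.2% and 60.9%, then 6.26% and 0%). The sums were 13.9, 15.7 and 16.4 points.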

How the data were processed

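The submitters' processing notes name Bowtie2 2.3.4.3, Picard and the hg38 build for the LaminB1 CUT&RUN reads. Which program called regions is, in the sources used here, not given. Each of the 4 deposited lists gives regions on a 1 kb grid with LaminB1 and control library read counts, not normalized, per the file headers. The deposited p-value and adjusted p-value per region were used only for a stricter list. As tested on the values, the deposited log2 fold equals the log2 ratio of the LaminB1 and control counts less a constant for each list, and the deposited score is 100 times that fold. Both were used only within a list. Coordinates are printed from 1.

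The covered share of gene bodies (RefSeq, GRCh38.p14) and of 10 kb bins was computed with Python 3.11.15, pandas 2.3.3 and numpy 2.4.6. It was compared after an arcsine square root transformation in R 4.3.3 with limma 3.58.1, using a trended prior variance and Benjamini-Hochberg adjustment at 0.05, over the genes or bins with covered sequence in any list. For single values, libraries were permuted exactly between groups, two-sided. Promoter windows were aligned with Biopython 1.88; identities of proteins were not analysed here. IgG libraries were not used here as samples.

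Named genes were all members, genes inside the span, the 5 nearest protein-coding genes on each side, the 3 largest differences of each list and the 3 genes most like the member with the largest difference. The members and lists were chosen with earlier results of these data known. Alternatives left out replicates, used a replicate block, other transformations, filters, region subsets, flanks and step sizes; gene bodies from the promoter-table start were added after seeing the data.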

Additional observations from a re-analysis of the deposited data

How the results depend on the processing

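The 9 UGT2 members were few and covered in few lists, so leaving out 1 library often removed the spread of a group. The lone library is then assumed to vary like the other group. With all lists limma called 0 members, and calls with a library left out are not given. The difference of UGT2B28 was -17.3 points without control 1 and 0 without control 2, and that of UGT2B4 was 0 and -45.8 points. Without double loss 1, UGT2B7 was at 44.8 points, UGT2B11 at 72.1 and UGT2B10 at 0. Without double loss 2, UGT2B7 was at 30.8 points, UGT2B11 at 0 and UGT2B10 at 25.0. Keeping the upper 50% of regions (ranked by log2 fold), limma called 1, UGT2B15 (-72.0 points, adjusted p = 0.0410). In that setting 42 genes were called higher and 26 lower of 2009 tested. Over the alternatives that kept all libraries, the limma adjusted p of UGT2B15 ran from 0.0410 to 0.417. Its direction held in all alternatives. UGT2B15 was the member with the largest difference and its groups did not overlap. Leaving out 1 library could thus not turn its direction, which says little of stability. UGT2B7 was at 0 points from the promoter-table start. UGT2B17 reversed to 24.9 points without control 1, ran from -53.8 to 24.9 over left-out libraries, and reversed to 46.2 points with the upper 50% of regions.

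The span difference of -0.27 points reversed to 4.29 without control 1, to 0.71 without double loss 1, to 0.66 with 100 kb added on each side and to 0.54 without regions under 10 kb; over the left-out libraries it ran from -4.83 to 4.29. The next percents are of all 113 steps, the 60 uncovered ones included. The percent of steps above both controls, 3.54 with all lists, ran from 3.54 to 15.9 over left-out libraries and was 1.77 with the upper 50% of regions. The percent below both, 6.19, ran from 6.19 to 17.7. Steps called higher by limma (1) ran from 1 to 17 and steps called lower (2) from 3 to 16 over left-out libraries. With any library left out, limma also called more bins over the whole genome, in both directions, than with all lists. The rise in called steps was thus not particular to the span. The upper 50% of regions gave 0 called higher, 5 kb steps gave 3 higher and 5 lower, and 20 kb steps gave 0 and 0. The replicate block gave 0 higher and 0 lower; the correlation of deviations of same-numbered replicates was -0.0198 over genes, so the numbers were not taken as pairs. The replicate block called 0 of all 3058 genes and 0 of all 95092 bins, so the end of the FOXA2 call was not particular to that gene. The difference between UGT2B15 and UGT2B10 was chosen for its size, so its sign says nothing of stability. Without double loss 1 it was -72.0 points, all from UGT2B15, with UGT2B10 at 0% in the other 3 lists. Without a filter on low values a constant prior variance was used, since the trend could not be fitted.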
